A study of Arabidopsis thaliana with 6 samples.

Results

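The trichome MYB-bHLH-WD40 genes are 10 genes of *Arabidopsis thaliana*, chosen by locus identifier from their known roles: the MYB activators *GL1* and *MYB23*, the bHLH genes *GL3* and *EGL3*, the WD40 gene *TTG1*, their target *GL2*, and the MYB inhibitors *TRY*, *CPC*, *ETC1* and *TCL1*. The choice was made with earlier results of these data known. All 10 genes were found among the 36796 genes of the RNA-seq count table, and all 10 had enough reads to be tested. *ref4-3* plants, which carry a semidominant missense allele of *MED5b*, the gene of a subunit of the Mediator tail, were compared with wild-type plants, both of ecotype Col-0. Each genotype had 3 libraries, and each library was made from the rosettes of 5 unbolted plants that were 21 days old, grown in days of 16 h light (150 µE) at 22°C after 3 days of cold as seeds, and harvested 6 h into the light. No other genotype or treatment was part of the comparison, and the bulk tissue mixed all cell types and leaf ages of the rosette.

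Trichomes of Arabidopsis are branched hair cells that arise from the epidermis of young leaves. Their fate is set by a complex in which a MYB protein (GL1 or MYB23) and the WD40 protein TTG1 bind a bHLH protein (GL3 or EGL3), and this complex activates *GL2*, which encodes a homeodomain protein needed for trichome growth. The complex also activates several, though not necessarily all, small MYB genes of the CPC family. Proteins of this family lack an activation domain, move into neighboring cells and compete with GL1 for the bHLH protein, so that the neighbors do not become trichomes. In the root, a related complex specifies cells without hairs.

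The inhibitors are close relatives, and their second coding exon is shown because it displays how alike the genes are that the reads had to tell apart. This exon of *TRY* (chr5:21583270-21583357, plus strand), *CPC* (chr2:19049946-19050033, minus strand), *ETC1* (chr1:147452-147539, plus strand) and *TCL1* (chr2:12969766-12969853, minus strand) is given below from TAIR10.1, together with that of *ETC2* (chr2:12961640-12961727, minus strand) and *TCL2* (chr2:12965198-12965285, minus strand), which lie next to *TCL1*. Each is 88 bases long, and capitals mark the 48 positions at which all 6 genes have the same base. *ETC3*, another gene of this family, is not shown because its second coding exon has 94 bases.
*TRY*: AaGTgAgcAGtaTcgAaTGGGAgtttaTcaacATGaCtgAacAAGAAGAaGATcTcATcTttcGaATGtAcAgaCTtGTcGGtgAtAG
*CPC*: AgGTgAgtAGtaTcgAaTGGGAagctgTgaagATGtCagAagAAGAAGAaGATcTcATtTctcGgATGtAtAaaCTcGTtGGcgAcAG
*ETC1*: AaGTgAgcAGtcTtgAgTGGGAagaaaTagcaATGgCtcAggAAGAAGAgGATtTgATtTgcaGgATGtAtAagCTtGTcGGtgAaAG
*TCL1*: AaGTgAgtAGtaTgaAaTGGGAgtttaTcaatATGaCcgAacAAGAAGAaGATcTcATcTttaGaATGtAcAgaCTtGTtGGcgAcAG
*ETC2*: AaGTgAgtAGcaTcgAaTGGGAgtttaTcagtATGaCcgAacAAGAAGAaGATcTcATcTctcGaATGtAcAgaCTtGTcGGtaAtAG
*TCL2*: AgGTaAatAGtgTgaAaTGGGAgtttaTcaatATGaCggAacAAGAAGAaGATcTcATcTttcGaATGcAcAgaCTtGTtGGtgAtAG
In this exon, *TRY* shared 89.8% of bases with *TCL1* and 77.3% with *CPC*, whereas *ETC1* and *TCL2* shared 60.2%. Across whole transcripts, no member matched another gene at 95% identity or more over 50% of its length. *GL3* and *EGL3* matched at 76.1% identity over 1931 bases, *GL1* and *MYB23* at 84.5% over 394 bases, and *TCL1* and *ETC2* at 77.4% over 376 bases. The longest match of *CPC* (77.6% over 174 bases) and of *ETC1* (75.3% over 178 bases) was *ETC3*.

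The 250 bases before the annotated start are shown for the 4 members that passed the test described below, since bHLH and MYB proteins bind short motifs and these letters can be searched directly. Capitals mark every E-box (CANNTG, bound by bHLH proteins) and every MYB core (CNGTTA or CNGTTG), searched on both strands. The G-box (CACGTG) is an E-box, and a match can be both an E-box and a MYB core, as CAACTG is in *GL1*. The windows are chr3:10363608-10363857 (minus strand) for *GL1*, chr5:16127475-16127724 (plus strand) for *MYB23*, chr1:23599163-23599412 (plus strand) for *EGL3* and chr5:8372848-8373097 (minus strand) for *TTG1*, all in TAIR10.1.
*GL1*: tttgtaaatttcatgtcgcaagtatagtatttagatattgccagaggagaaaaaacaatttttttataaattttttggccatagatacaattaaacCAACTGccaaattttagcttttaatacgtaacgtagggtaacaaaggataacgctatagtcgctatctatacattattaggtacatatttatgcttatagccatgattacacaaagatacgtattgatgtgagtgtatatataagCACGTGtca
*MYB23*: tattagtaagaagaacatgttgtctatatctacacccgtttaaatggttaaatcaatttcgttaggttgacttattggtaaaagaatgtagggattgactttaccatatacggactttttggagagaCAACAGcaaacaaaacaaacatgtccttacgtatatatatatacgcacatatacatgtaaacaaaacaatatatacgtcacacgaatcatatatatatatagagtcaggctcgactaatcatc
*EGL3*: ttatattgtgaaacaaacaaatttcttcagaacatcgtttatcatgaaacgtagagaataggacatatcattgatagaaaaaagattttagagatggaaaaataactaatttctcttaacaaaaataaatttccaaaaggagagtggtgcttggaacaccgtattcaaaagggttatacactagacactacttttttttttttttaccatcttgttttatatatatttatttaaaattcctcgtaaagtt
*TTG1*: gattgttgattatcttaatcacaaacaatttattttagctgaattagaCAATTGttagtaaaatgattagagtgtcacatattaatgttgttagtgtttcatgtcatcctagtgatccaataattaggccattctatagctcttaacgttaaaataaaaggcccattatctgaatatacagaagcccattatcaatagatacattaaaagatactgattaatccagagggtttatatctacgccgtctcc
*GL1* held the only G-box among the 10 members, 4 to 9 bases before its start, and 6.49% of the windows of 27443 genes held one. An E-box was found in the windows of 7 of the 10 members and a MYB core in 4, against 55.3% and 40.7% of all windows. None of the 10 held the L1 box of HD-ZIP proteins such as GL2 (TAAATGCA or TAAATGTA), which 4.49% of all windows held. These are matches of letters within 250 bases and say nothing of binding.

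The libraries held 26060005 to 32746518 counts in *ref4-3* plants and 26349963 to 32879414 counts in wild-type plants. Levels are given in CPM, the usual unit of counts relative to library size (here scaled by TMM), and 3 counts corresponded to 0.0873 to 0.124 CPM. Genotypes were compared by edgeR's quasi-likelihood test over 23050 genes, and a gene was said to rise or fall where its Benjamini-Hochberg adjusted p was below 0.05. Wild-type replicate 2 stood apart in the low counts that are spread over unexpressed genes, with 0.846 such counts per kb, against 4.86 to 7.17 in *ref4-3* libraries and 2.34 and 3.49 in the other wild-type libraries. This background was thus higher in every *ref4-3* library than in any wild-type library. *MED5b* itself differed within error (17.4 ± 1.15 CPM in *ref4-3* plants and 21.6 ± 4.50 CPM in wild-type plants, SD, n = 3 each, edgeR adjusted p = 0.202), and since *ref4-3* is a missense allele its level does not check the labels. Mesophyll transcripts differed between the rosettes, since 5 of 6 marker genes fell, against 11.9% of all tested genes. These markers had a summed level of 25436 to 33224 CPM in *ref4-3* plants and 50457 to 57750 CPM in wild-type plants. The count of 5 was 3 without *ref4-3* replicate 2 or wild-type replicate 2, 2 without *ref4-3* replicate 3, and 4 to 6 without 1 of the others, whereas the summed levels did not overlap. The part of this difference in the levels below was not tested.

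Of the 10 genes, 3 rose (*GL1*, *MYB23* and *EGL3*), 1 fell (*TTG1*) and 6 did not pass the test. Over all tested genes, 20.4% passed, 8.52% in the higher and 11.9% in the lower direction. The libraries of the genotypes did not overlap for 7 of the 10 members, which were higher in *ref4-3* plants for 5 genes and lower for 2, whereas 45.2% of all tested genes did not overlap. The median log2 fold change was 0.56 over the members and 0.01 over all tested genes. The count of 4 depended on most of the libraries: 2 members passed without *ref4-3* replicate 1, *ref4-3* replicate 2 or wild-type replicate 2, and 1 without *ref4-3* replicate 3. It was 3 without wild-type replicate 3 and remained 4 without wild-type replicate 1. *GL1* alone also exceeded a fold change of 2, as did 9.72% of all tested genes, and that count became 0 without *ref4-3* replicate 3 and 2 without wild-type replicate 3. In RNA from whole rosettes, fewer cells of a type and less RNA in each cell cannot be told apart.

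**Figure D1:**
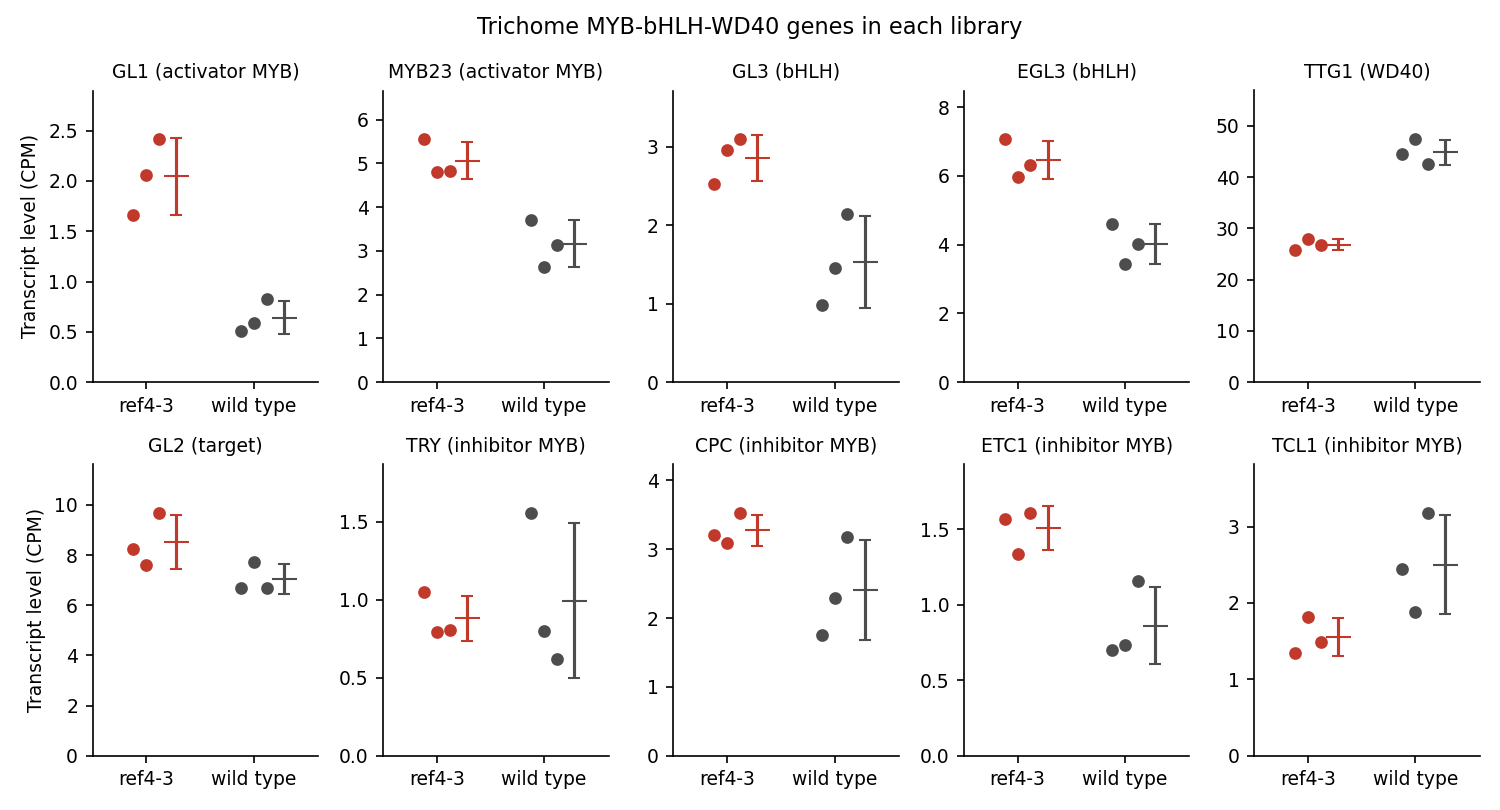
Transcript level (CPM) of each member in the *ref4-3* libraries (red, left) and the wild-type libraries (gray, right), with 1 point per library and the mean and SD of 3 libraries beside the points. Each panel has its own axis from 0, and the points of the genotypes are apart for *GL1*, *MYB23*, *GL3*, *EGL3*, *TTG1*, *ETC1* and *TCL1*.

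*GL1* (AT3G27920, chr3:10361790-10363607, minus strand, 3 exons), the MYB gene required to start a trichome on the leaf, exhibited the strongest increase among the members. Its level was 1.66, 2.06 and 2.42 CPM in the *ref4-3* libraries, against 0.508, 0.591 and 0.826 CPM in the wild-type libraries. All 3 *ref4-3* libraries were higher than every wild-type library. These levels rested on 57, 60 and 78 counts in *ref4-3* plants and on 16, 17 and 20 counts in wild-type plants. *ref4-3* plants thus had 3.20-fold more of the transcript (edgeR, log2 fold change 1.68, SE 0.30, adjusted p = 0.0118). The call was lost without *ref4-3* replicate 3 (log2 fold change 1.53, edgeR adjusted p = 0.0608), and the adjusted p of edgeR ranged between 0.0182 and 0.0608 when each library in turn was left out. Low counts spread by length over unexpressed genes could account for 7.63 to 8.66% of the *GL1* counts in *ref4-3* libraries and 4.69 to 20.6% in wild-type libraries, and after they were subtracted the log2 fold change was 1.81 (edgeR adjusted p = 0.0145).

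*MYB23* (AT5G40330, chr5:16127725-16129661, plus strand, 3 exons), a close relative of *GL1* that acts with it in trichome initiation and branching, also rose. The *ref4-3* libraries had 5.56, 4.81 and 4.83 CPM, against 3.72, 2.64 and 3.14 CPM in the wild-type libraries. The genotypes were thus apart, and the test gave a log2 fold change of 0.68 (SE 0.19, edgeR adjusted p = 0.0429). This call was lost when any library other than wild-type replicate 1 was left out, with adjusted p of edgeR between 0.0479 and 0.123, and without a filter on low counts (edgeR adjusted p = 0.0936).

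*GL3* (AT5G41315, chr5:16529090-16533287, plus strand, 7 exons) and *EGL3* (AT1G63650, chr1:23599413-23603164, plus strand, 7 exons) encode the bHLH proteins that hold the complex together. *EGL3* had 7.07, 5.98 and 6.32 CPM in the *ref4-3* libraries, against 4.61, 3.44 and 4.01 CPM in the wild-type libraries, with no overlap. It rose (log2 fold change 0.68, SE 0.17, edgeR adjusted p = 0.0325). As for *MYB23*, the call was lost when any library other than wild-type replicate 1 was left out, with adjusted p of edgeR between 0.0415 and 0.108, and without a filter on low counts (edgeR adjusted p = 0.0704).

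*GL3* did not pass the test, although its levels did not overlap either. They were 2.53, 2.95 and 3.10 CPM in *ref4-3* libraries, against 0.985, 1.46 and 2.15 CPM in wild-type libraries. Wild-type replicate 3 was the highest of its group and lay closest to the *ref4-3* libraries. The log2 fold change was 0.91 (SE 0.30, edgeR adjusted p = 0.0692), larger than that of *EGL3* but less precise. Without wild-type replicate 3 it was 1.19 (edgeR adjusted p = 0.0344), and *GL3* passed with all libraries under edgeR's exact test (adjusted p = 0.0331) and DESeq2 (adjusted p = 0.0296). These were the only 3 of 14 alternatives in which it passed. Without *ref4-3* replicate 3 the log2 fold change was 0.84 (edgeR adjusted p = 0.197). Low-level background could account for 15.3 to 19.4% of the *GL3* counts in *ref4-3* libraries and 5.44 to 30.4% in wild-type libraries. After it was subtracted, the log2 fold change was 0.94 (edgeR adjusted p = 0.108).

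*TTG1* (AT5G24520, chr5:8370317-8372847, minus strand, 2 exons), the WD40 gene whose protein serves trichome, root hair, anthocyanin and seed coat complexes alike, exhibited a decreased transcript level. It had 25.7, 27.9 and 26.8 CPM in the *ref4-3* libraries, against 44.6, 47.4 and 42.6 CPM in the wild-type libraries. The spread within each genotype was small beside the gap between them. The level fell 1.67-fold in *ref4-3* plants (log2 fold change -0.74, SE 0.10, edgeR adjusted p = 0.00599). *TTG1* was the only member called in each of the 6 fits that left out a library, with adjusted p of edgeR between 0.0115 and 0.0398. It was also called under all 14 alternative settings.

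**Figure D2:**
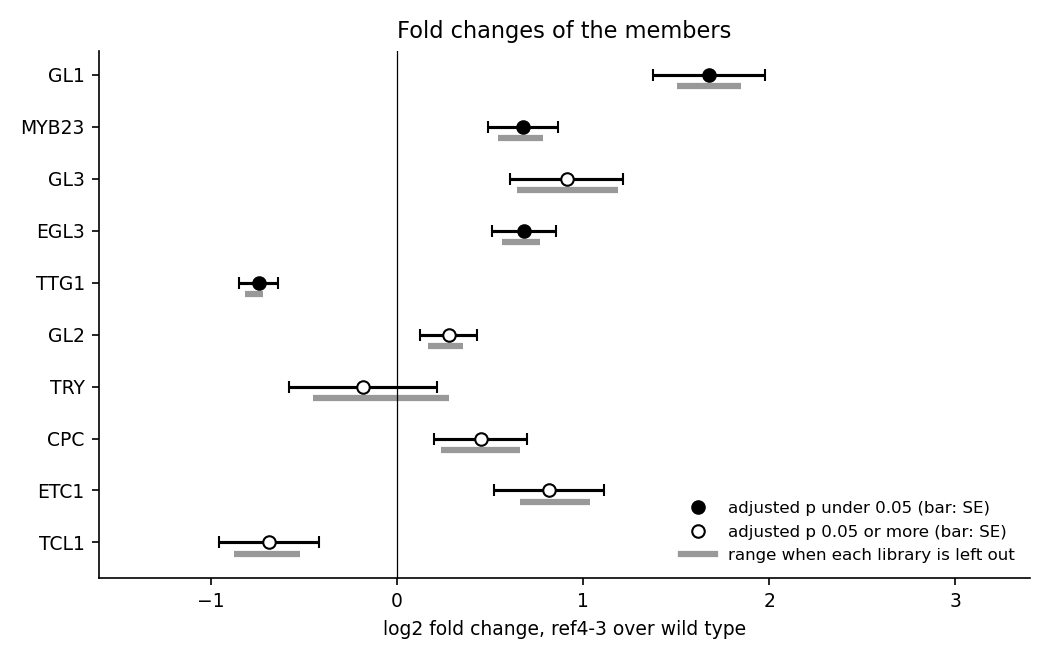
Log2 fold change of each member in *ref4-3* over wild-type plants (horizontal axis), with bars of 1 SE and filled points where the edgeR adjusted p was below 0.05. Gray bars give the range of the estimate when each of 6 libraries was left out, and only the gray bar of *TRY* crosses 0.

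*GL2* (AT1G79840, chr1:30036956-30041440, plus strand, 10 exons), the homeodomain gene that the complex activates, did not pass the test. Its level was 8.26, 7.59 and 9.70 CPM in the *ref4-3* libraries, against 6.67, 7.72 and 6.69 CPM in the wild-type libraries. *ref4-3* replicate 2 lay below wild-type replicate 2, so that the genotypes overlapped. The log2 fold change was 0.28 (SE 0.15, approximate 95% confidence interval -0.02 to 0.58, edgeR adjusted p = 0.221). The gene model shared 155 bases with a noncoding RNA gene on the same strand and 198 bases with a gene on the opposite strand, and the strand setting of the counting is not given in the sources used here.

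The 4 inhibitor genes did not share a direction, and none of them passed the test. *CPC* (AT2G46410, chr2:19049021-19050369, minus strand), best known for promoting root hairs and limiting trichomes, had 3.20, 3.09 and 3.53 CPM in *ref4-3* libraries, against 1.75, 2.30 and 3.18 CPM in wild-type libraries. Only wild-type replicate 3 reached into the *ref4-3* range. The log2 fold change of *CPC* was 0.45 (SE 0.25, edgeR adjusted p = 0.220).

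*ETC1* (AT1G01380, chr1:147043-148014, plus strand) enhances the effects of *TRY* and *CPC*. It had 1.57, 1.34 and 1.61 CPM in *ref4-3* libraries, against 0.699, 0.731 and 1.16 CPM in wild-type libraries. Its libraries did not overlap and were higher in *ref4-3* plants, but this difference did not pass (edgeR, log2 fold change 0.82, SE 0.30, adjusted p = 0.0870).

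*TCL1* (AT2G30432, chr2:12968565-12970240, minus strand), which limits trichomes mainly on the stem of the inflorescence, ran the other way. It had 1.34, 1.82 and 1.49 CPM in *ref4-3* libraries, against 2.45, 1.88 and 3.18 CPM in wild-type libraries. All *ref4-3* libraries were lower, though *ref4-3* replicate 2 and wild-type replicate 2 were nearly equal. The log2 fold change was -0.69 (SE 0.27, edgeR adjusted p = 0.103).

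*TRY* (AT5G53200, chr5:21582614-21584243, plus strand), which prevents clusters of trichomes, had the least certain estimate. It had 1.05, 0.790 and 0.805 CPM in *ref4-3* libraries, against 1.56, 0.800 and 0.620 CPM in wild-type libraries. The wild-type libraries were both the highest and the lowest of the 6, on 49, 23 and 15 counts. The log2 fold change was -0.18 (SE 0.40, approximate 95% confidence interval -0.96 to 0.60, edgeR adjusted p = 0.755), and without wild-type replicate 1 it was 0.28. The difference was smaller than the spread between the wild-type libraries. Low-level background could account for 12.9 to 24.9% of the *TRY* counts in *ref4-3* libraries and 3.32 to 14.1% in wild-type libraries.

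Levels of different genes were compared after division by exon length, as CPM per kb. *TTG1* was the most abundant member in both genotypes, at 14.3 ± 0.587 CPM per kb in *ref4-3* plants and 23.9 ± 1.297 in wild-type plants (SD, n = 3 each). In *ref4-3* plants it was followed by *MYB23* (5.19) and *CPC* (4.29), each apart from its neighbors in this order. *GL2*, *EGL3*, *TCL1*, *GL1* and *ETC1* came next, from 2.66 down to 1.76 CPM per kb, and each overlapped the next. *GL3* (1.06) and *TRY* (0.976) came last and overlapped each other. In wild-type plants, *TCL1* (3.95), *MYB23* (3.24), *CPC* (3.16) and *GL2* (2.19) followed *TTG1*, each overlapping its neighbor. *EGL3* (1.54), *TRY* (1.10), *ETC1* (1.01), *GL1* (0.681) and *GL3* (0.567) came after *GL2*, and of these neighbors all overlapped, although *EGL3* was apart from *GL2*. *TCL1* thus stood above *MYB23* in the wild-type order, where their ranges overlapped, and below it in that of *ref4-3* plants, where they did not.

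Since inhibitors and activators compete for the same bHLH proteins, their summed transcript levels were set against each other in each library. *GL1* and *MYB23* together had 7.45, 7.11 and 7.51 CPM per kb in *ref4-3* libraries, against 4.34, 3.33 and 4.09 in wild-type libraries. The 4 inhibitors together had 9.31, 9.37 and 9.76 CPM per kb in *ref4-3* libraries, against 8.70, 7.72 and 11.2 in wild-type libraries. The activator sums did not overlap, whereas the inhibitor sums of *ref4-3* plants lay within the wild-type range. The ratio of inhibitor to activator transcripts was 1.25, 1.32 and 1.299 in *ref4-3* libraries, against 2.002, 2.32 and 2.75 in wild-type libraries. It averaged 1.29 ± 0.0353 in *ref4-3* plants and 2.35 ± 0.374 in wild-type plants (SD, n = 3 each), and no test was made of this sum over chosen genes. The ratio covers only the 4 inhibitors among the members, not the whole CPC family. *ETC2* (7.54 CPM per kb in *ref4-3* plants and 5.61 in wild-type plants), *TCL2* (6.40 and 8.11) and *ETC3* (3.87 and 1.48) were left out of it.

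The WD40 and bHLH transcripts differed in opposite directions. *GL3* and *EGL3* together had 3.64, 3.38 and 3.56 CPM per kb in *ref4-3* libraries, against 2.13, 1.86 and 2.33 in wild-type libraries. *TTG1* had 13.7, 14.8 and 14.3 CPM per kb in *ref4-3* libraries, against 23.7, 25.2 and 22.6 in wild-type libraries. The ratio of *TTG1* to the bHLH sum was 4.05 ± 0.321 in *ref4-3* plants and 11.5 ± 1.95 in wild-type plants (SD, n = 3 each), with no overlap. This ratio was chosen after the values had been seen and was not tested.

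**Figure D3:**
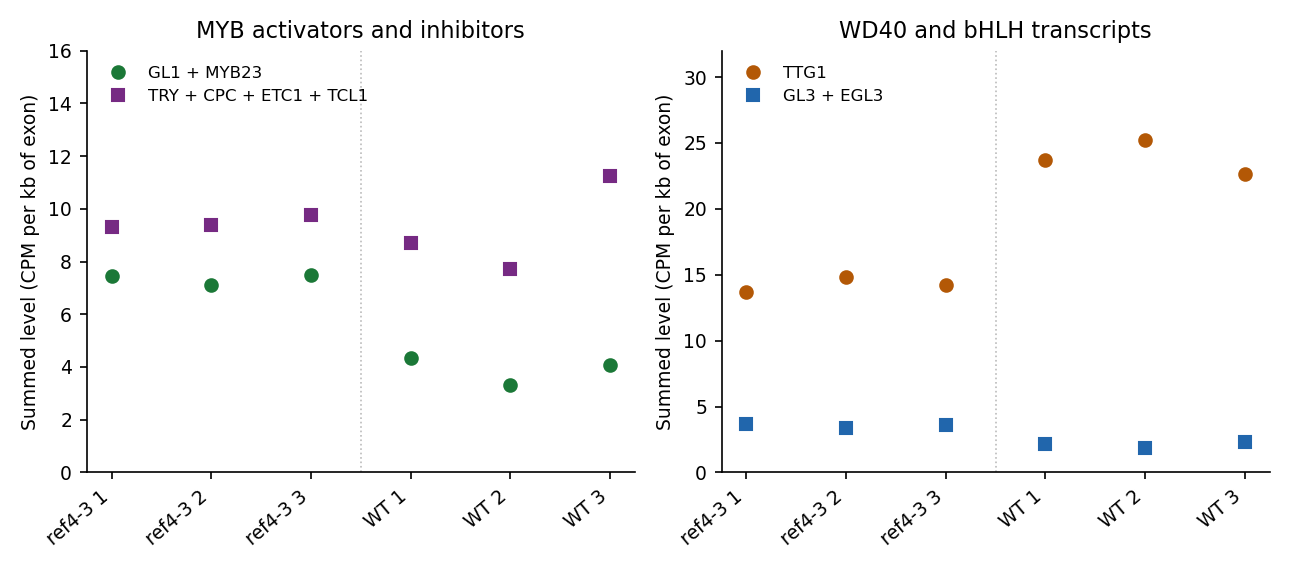
Summed transcript level (CPM per kb of exon) in each library, with the *ref4-3* libraries left of the dotted line and the wild-type libraries (WT) right of it. Left, the MYB activators are higher in all *ref4-3* libraries (7.11 to 7.51) than in wild-type libraries (3.33 to 4.34). The sums of the inhibitors *TRY*, *CPC*, *ETC1* and *TCL1* overlap. Right, *TTG1* is lower and the bHLH sum higher in all *ref4-3* libraries.

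Other genes of the pathway were then examined, again from the same test. Of 3 further inhibitors of the CPC family, only *ETC3* rose, with 2.52 ± 0.863 CPM in *ref4-3* plants and 0.963 ± 0.348 CPM in wild-type plants (SD, n = 3 each; log2 fold change 1.39, edgeR adjusted p = 0.0377). This call held in 1 of 6 fits that left out a library, that without wild-type replicate 3. *ETC2* (log2 fold change 0.43, edgeR adjusted p = 0.290) and *TCL2* (log2 fold change -0.34, edgeR adjusted p = 0.404), the neighbors of *TCL1*, did not pass.

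Other MYB and bHLH genes whose proteins work with TTG1 did not all move alike. Of 11 genes 10 were tested (*TT2* was too low), and 3 rose, 1 fell and 6 did not pass, with a median log2 fold change of 0.81. Over all tested genes, 8.52% rose and 11.9% fell. The estimate was above 0 for 9 of the 10, as for 51.0% of all tested genes. All *ref4-3* libraries lay above all wild-type libraries for 5 of the 10, and for 5186 of all 23050 tested genes. *PAP1* turned to a log2 fold change of -0.38 without *ref4-3* replicate 1. *MYC1*, a bHLH gene that acts beside *GL3* in trichomes, rose to 10.8 ± 1.33 CPM in *ref4-3* plants, against 4.84 ± 0.679 CPM in wild-type plants (SD, n = 3 each; log2 fold change 1.16, edgeR adjusted p = 0.00683). *TT8*, the bHLH gene of flavonoid pigment synthesis, rose to 6.78 ± 3.39 CPM in *ref4-3* plants, against 1.71 ± 0.206 CPM in wild-type plants (log2 fold change 1.98, edgeR adjusted p = 0.0122). Both were called in all 6 fits that left out a library. *MYB82*, a MYB gene that can act in trichome initiation, had 5.28 ± 1.47 CPM in *ref4-3* plants and 1.74 ± 0.766 CPM in wild-type plants (log2 fold change 1.61, edgeR adjusted p = 0.0213). *MYBL2*, a small MYB that represses flavonoid pigment genes, fell to 18.3 ± 10.9 CPM in *ref4-3* plants, against 79.1 ± 26.2 CPM in wild-type plants (log2 fold change -2.11, edgeR adjusted p = 0.0166). The count of 4 was 2 without *ref4-3* replicate 2 or *ref4-3* replicate 3, since *MYB82* and *MYBL2* were then not called.

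Regulators that act before the complex in hormone and age responses showed little common direction. Of 11 tested genes (of 12, since *GIS2* was too low), 1 rose, 1 fell and 9 did not pass, and the median log2 fold change was 0.06. Of all tested genes, 8.52% rose and 11.9% fell. *ZFP5*, a zinc finger gene of gibberellin and cytokinin responses in trichomes, rose to 2.32 ± 0.600 CPM in *ref4-3* plants, against 0.778 ± 0.387 CPM in wild-type plants (SD, n = 3 each; log2 fold change 1.58, edgeR adjusted p = 0.0334). *SAD2*, an importin gene needed for trichome initiation, fell to 40.7 ± 3.36 CPM in *ref4-3* plants, against 63.2 ± 9.11 CPM in wild-type plants (log2 fold change -0.63, edgeR adjusted p = 0.0214). *GIS* (log2 fold change 0.77, edgeR adjusted p = 0.147) and *SPL9* (log2 fold change -0.68, edgeR adjusted p = 0.0537) did not pass. The count of 2 was 0 without *ref4-3* replicate 2 or *ref4-3* replicate 3, 1 without *ref4-3* replicate 1 or wild-type replicate 2, and 4 under edgeR's exact test and DESeq2. Other genes of the list entered some of these counts. Among the 6 fits that left out a library, *ZFP5* was called in only 1 and *SAD2* in 3.

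Few genes of later trichome development passed the test, against 20.4% of all tested genes. None of 12 differentiation regulators passed edgeR's quasi-likelihood test, 3 had an unadjusted p below 0.05, and edgeR's exact test and DESeq2 called 1 each. *TTG2*, a WRKY gene that the complex activates, had a log2 fold change of 0.55 (edgeR adjusted p = 0.127), and *SIM*, which stops division in the young trichome, had one of -0.04 (edgeR adjusted p = 0.884). *HDG11* (log2 fold change 0.23, edgeR adjusted p = 0.362) and *MYB106* (log2 fold change -0.21, edgeR adjusted p = 0.476), which both limit branching, did not pass. Of 16 genes of branching, actin and the wall, only *AN* fell, with 26.9 ± 1.67 CPM in *ref4-3* plants and 39.4 ± 4.10 CPM in wild-type plants (SD, n = 3 each; log2 fold change -0.55, edgeR adjusted p = 0.0210), and 15 did not pass. That call was lost without *ref4-3* replicate 2 or *ref4-3* replicate 3. The kinesin gene *ZWI* had a log2 fold change of 0.14 (edgeR adjusted p = 0.570). The median log2 fold change was 0.19 over the differentiation regulators and -0.13 over the branching genes.

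**Figure D4:**
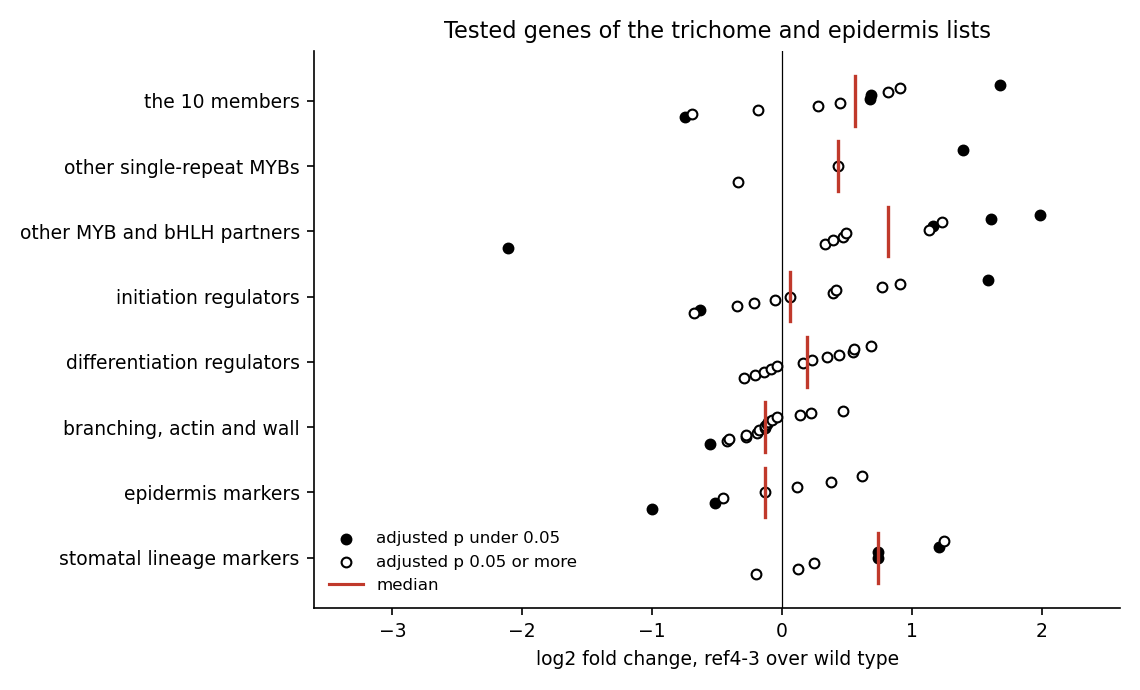
Log2 fold change in *ref4-3* over wild-type plants (horizontal axis) of every tested gene in 8 lists, 1 point per gene, filled where the edgeR adjusted p was below 0.05, with the list median as a red line. The medians of the members (0.56), other single-repeat MYBs (0.43), other MYB and bHLH partners (0.81) and stomatal lineage markers (0.74) lie right of 0. Those of the initiation (0.06), differentiation (0.19), branching (-0.13) and epidermis (-0.13) lists lie nearer to it.

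Markers of the tissue were read from the same fit to describe the cells in the samples. Of 7 epidermis markers, 2 fell and 5 did not pass, and 11.9% of all tested genes fell. The markers summed to 392.4 to 507 CPM in *ref4-3* plants and 421 to 535 CPM in wild-type plants. The estimate was above 0 for 3 of the 7 and below 0 for 4, with a median log2 fold change of -0.13. Those above 0 were *KCS1* (log2 fold change 0.61, edgeR adjusted p = 0.106), *PDF1* (log2 fold change 0.38, edgeR adjusted p = 0.134) and *LACS1* (log2 fold change 0.12, edgeR adjusted p = 0.663). *ATML1*, which specifies the epidermis, fell to 22.2 ± 2.91 CPM in *ref4-3* plants, against 44.4 ± 8.89 CPM in wild-type plants (SD, n = 3 each; log2 fold change -0.998, edgeR adjusted p = 0.0119), and its relative *PDF2* had a log2 fold change of -0.51 (edgeR adjusted p = 0.0391). *ATML1* was not called without *ref4-3* replicate 3, and *PDF2* was called only in the fit without wild-type replicate 3 among those that left out a library. Of 7 markers of the stomatal lineage, another product of the young epidermis, 3 rose and 4 did not pass, and 8.52% of all tested genes rose. These markers summed to 60.2 to 69.1 CPM in *ref4-3* plants and 50.6 to 58.6 CPM in wild-type plants. The estimate was above 0 for 6 of the 7. *FAMA* went the other way, with 12.9 to 15.6 CPM in *ref4-3* libraries and 16.4 to 16.9 CPM in wild-type libraries (log2 fold change -0.20, edgeR adjusted p = 0.251). *SPCH*, which starts this lineage, rose to 4.69 ± 0.476 CPM in *ref4-3* plants, against 2.81 ± 0.389 CPM in wild-type plants (log2 fold change 0.74, edgeR adjusted p = 0.0322), but among the fits that left out a library the call held only without wild-type replicate 3. The count of 3 stomatal markers was 3 again without wild-type replicate 3, 1 without *ref4-3* replicate 3 and 0 without any of the other 4 libraries. The stomatal lineage list and the members thus both had higher medians, 0.74 and 0.56, and the part of leaf age or cell number in either was not tested.

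Root tissue was checked because *CPC*, *TRY* and *TTG1* also act there. The root hair genes *EXP7*, *PRP3* and *COBL9* were too low to be tested, at means of 0.208 to 0.401 CPM in *ref4-3* plants and 0.121 to 0.253 CPM in wild-type plants. *PYK10*, an abundant root glucosidase that seedling shoots also express, rose to 129 ± 45.0 CPM in *ref4-3* plants, against 22.2 ± 0.576 CPM in wild-type plants (SD, n = 3 each; log2 fold change 2.54, edgeR adjusted p = 0.00249). The summed root list, 91.3 to 169 CPM in *ref4-3* plants and 34.6 to 36.6 CPM in wild-type plants, was carried by *PYK10*. *PHO1* had 11.4 ± 0.906 CPM in *ref4-3* plants and 12.8 ± 1.80 CPM in wild-type plants (SD, n = 3 each; log2 fold change -0.17, edgeR adjusted p = 0.418), and *RHD6*, which starts root hairs, had a log2 fold change of 1.502 (edgeR adjusted p = 0.0555). Both were named after their values had been seen. The part of root transcripts in the levels of the members was not tested. Floral markers had summed levels of 5.41 to 9.17 CPM in *ref4-3* plants and 10.9 to 15.1 CPM in wild-type plants, and seed storage markers of 1.72 to 2.48 CPM in *ref4-3* plants and 0.313 to 1.56 CPM in wild-type plants. Of 5 floral markers, 1 fell and 4 did not pass, against 11.9% of all tested genes that fell. All 5 estimates were below 0. When a library was left out, the count of 1 held only without *ref4-3* replicate 1 or wild-type replicate 2. Shoot meristem markers summed to 18.3 to 20.2 CPM in *ref4-3* plants and 21.3 to 29.6 CPM in wild-type plants, and of these 4 genes *STM* fell (log2 fold change -0.59, edgeR adjusted p = 0.0363), a call that held only without wild-type replicate 2 or wild-type replicate 3 among the fits that left out a library. *WUS* (log2 fold change 1.22, edgeR adjusted p = 0.132) and *CLV3* (log2 fold change 0.64, edgeR adjusted p = 0.436), which mark the center of the meristem and were named after their values had been seen, did not pass.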

How the data were processed

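RNA was measured by strand-specific, poly(A)-selected RNA-seq. The authors trimmed reads with fastp 0.23.2, aligned them to TAIR10 with HISAT2 2.2.1 and used SAMtools 1.17 for sorting, and the deposited values are raw counts per gene, with no normalization and no pooling of libraries. The strand setting and the handling of reads with several matches are not given in the sources used here. Depth sets counting error only, since reads that PCR copied are not independent molecules. Columns were matched to genotype and replicate by their labels, and none was left unmatched. The 3 libraries of a genotype are stated to be biological replicates.

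The test was that of edgeR 4.0.16, run in R 4.3.3. The function filterByExpr (minimum count of 10, minimum total of 15) retained 23050 genes, TMM gave the scaling factors, and the quasi-likelihood F test (two-sided) set *ref4-3* against wild type, with p-values adjusted by Benjamini-Hochberg across these genes. It was tested on simulated data for this comparison, in which 200 genes were changed 4-fold: of the 191 among the 22194 genes tested, 89.0% were recovered, and 6.59% of calls were false. All members changed by less than 4-fold, and the recovery of smaller changes was not simulated. A DEG had an adjusted p below 0.05 and a fold change above 2. SEs came from the quasi-likelihood F statistic, and the approximate 95% confidence interval from the SE. CPM used the TMM-scaled library sizes.

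The files hold only locus identifiers. Names, coordinates, exon lengths and sequences came from the RefSeq annotation of TAIR10.1, to which 36632 of 36796 genes were matched. TAIR10.1 is not the name of the build used for mapping (TAIR10), and no coordinate of the files was used. Similar transcripts were searched with BLAST+ 2.17.0. Background counts per kb were estimated library by library on 5853 protein-coding genes whose median lay below 0.3 CPM, leaving out the highest 10%.

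The members and the gene lists were chosen with earlier results of these data known. All 10 members were named, from each list at most 4 genes that passed the test, and a few well-known genes that did not. Alternatives were edgeR's exact test, DESeq2 1.42.0, RLE scaling, a filter of 10 counts in all libraries or of 1 count in total, the replicate number as a block, subtraction of the background, thinning to the smallest library and leaving out each library. For the sums per length they were CPM without division by length and subtraction of the background; those of the *TTG1* ratio were added after seeing the data. Python 3.11.15 was used for tables (pandas 2.3.3, numpy 2.4.6) and plots (matplotlib 3.10.9).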

Additional observations from a re-analysis of the deposited data

How the results depend on the processing

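Among the members, *TTG1*, *GL2*, *CPC*, *ETC1* and *TCL1* kept their direction and their side of the threshold in all 14 alternatives, *GL1* in 13, *GL3* in 11, *EGL3* in 8 and *MYB23* in 7. *TRY* turned to a log2 fold change of 0.28 without wild-type replicate 1, in a range of -0.45 to 0.28 when each library was left out. The count of 4 members was 2 without a filter on low counts and between 1 and 4 when each library was left out, and the members above a fold change of 2 were 0 to 2, against 1 in the reported fit. With no filter, the median log2 fold change of all genes became 0.18 and 1412 genes were higher and 3303 lower, against 1964 and 2737 with it. Leaving out each library gave 1008 to 4639 called genes and 801 to 2416 DEGs in the whole table, against 4701 and 2240, with the lowest counts without *ref4-3* replicate 3. The cause was not tested, but each such fit has fewer samples.

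The same fits gave 0 or 1 further inhibitors, 2 to 5 partners of TTG1, 0 to 3 initiation regulators, 0 or 1 differentiation regulators and 0 or 1 branching genes. Initiation regulators were 4 under edgeR's exact test and 4 under DESeq2. Differentiation regulators were 1 under each of these, with at least 10 counts in every library and after background subtraction. Branching genes were 2 under DESeq2 and 2 without a filter. Without division by length, the ratio of inhibitor to activator transcripts among the members was 1.01 in *ref4-3* plants and 1.78 in wild-type plants. The ratio of *TTG1* to bHLH transcripts was then 2.88 in *ref4-3* plants and 8.18 in wild-type plants, and 4.46 and 12.3 after background subtraction. With these other choices the cause was not tested.

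With the replicate number as a block (replicate block), 3362 genes were called, 3 members among them, and the log2 fold change of *MYB23* was 0.69 (edgeR adjusted p = 0.0601) and that of *EGL3* 0.69 (edgeR adjusted p = 0.0478). No further inhibitor was called (0). Deviations of libraries with the same number correlated at -0.098, -0.024 and 0.207 over genes. Only replicate 3 of both genotypes correlated best with its own number. With 3 libraries per genotype, these correlations cannot decide whether libraries of the same number were paired. Depth limits *TRY*, *ETC1*, *GL1* and *TCL1* most, with 15 to 78 counts per library.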
